A study of Mus musculus with 22 samples.

Results

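The genes described here are 10 genes of the p53 pathway and of cellular senescence: Trp53, Cdkn1a, Cdkn2a, Cdkn2b, Mdm2, Ccng1, Trp53inp1, Phlda3, Sesn2 and Bax. They were taken by gene symbol from the 55367 genes of a read count table, by a rule that names no measured value although earlier results of these data were known, and all 10 were among the 22409 genes that passed the filter on low counts. RNA was sequenced from mouse liver in 22 libraries whose cell type label is HSC. The 12 diet libraries came from mice given CDA-HFD, a high-fat diet that lacks choline and has defined amino acids and that produces steatohepatitis with fibrosis, and the 10 control libraries came from mice kept on chow. Tissue was taken at zeitgeber time (ZT) 0, 6, 12 or 18 h, where ZT0 is lights on and ZT12 is lights off. Each of the 4 diet groups held 3 libraries, and the control groups held 3 libraries at ZT0 and at ZT18 but only 2 at ZT6 and at ZT12. All mice carried the age label of 20 weeks, and no label gives a strain, a sex or an engineered allele. One field of the labels starts the diet at 8 weeks of age for 12 weeks and another speaks of 6 months, so its length is not settled. Nothing in the labels ties a library to a single animal, and the spread behind the p-values may therefore be technical.

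p53, the product of Trp53, is a transcription factor that is held low by the ubiquitin ligase Mdm2 and is stabilised by DNA damage and other stress. It switches on genes that stop the cell cycle (Cdkn1a), that take part in apoptosis (Bax) and that answer oxidative and nutrient stress (Sesn2), and it switches on Mdm2, which closes a feedback loop. Senescent cells have left the cell cycle for good and are commonly recognised by the CDK inhibitors encoded by Cdkn1a, Cdkn2a and Cdkn2b and by the factors they secrete. In liver fibrosis, senescence has been described in stellate cells as well as in hepatocytes and cholangiocytes.

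Libraries held 19754805 to 41665623 counts in genes. The label HSC, read as hepatic stellate cell, was set against defining markers: Lrat averaged 1.78 CPM (counts scaled to library size) in diet and 1.81 CPM in control libraries, and Hand2 and Ngfr were each at 0 in 4 of the 22 libraries. The summed level of 12 endothelial markers ran from 1098 through a median of 1527 to 2514 CPM in diet libraries, against 16580, 26490 and 32860 CPM in control libraries, and all 12 markers were called lower under diet. Summed T and NK cell markers ran from 2396 to 6652 CPM under diet and from 426 to 1799 CPM in control, and all 12 were called higher under diet. Summed proliferation markers ran from 122 through a median of 158.5 to 185.7 CPM under diet, against 30.7, 67.6 and 138.7 CPM in control, with 7 of 8 called higher. The makeup of the libraries thus moved with diet, and its part in every diet difference given here was not tested. In such bulk samples, fewer cells of a type and less RNA per cell cannot be told apart. Some control libraries stood apart from the rest. Control ZT0 replicate 2 had the lowest endothelial sum of the controls and their highest T and NK cell sum, and Control ZT18 replicate 1 stood apart on the second principal component. Control ZT6 replicate 2, which is 1 of only 2 libraries of its group, had a summed level of macrophage and monocyte markers of 2449 CPM, against 446.4 to 709.9 CPM in the other 9 control libraries.

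Over the 4 times together, 7 of the 10 genes passed the test between diet and control. Trp53, Ccng1, Trp53inp1 and Mdm2 were higher under diet, Phlda3, Sesn2 and Bax were lower, and Cdkn1a, Cdkn2a and Cdkn2b did not pass. A gene is called here at a Benjamini-Hochberg adjusted p under 0.05 over all genes tested, in edgeR's quasi-likelihood test. By that rule 52.4% of all tested genes were called, 27.5% higher and 24.9% lower, so that 7 of 10 is read against a background in which the larger part of all genes changed. The median log2 change of the 10 genes was 0.15, beside 0.08 for all tested genes. Rescaling by library size alone moved that median of all genes to 0.25 and changed the split of calls to 7635 higher and 4557 lower genes, beside 6161 and 5587 with TMM scaling. The same 7 genes of the set were called in the same direction under that scaling, under RLE scaling and without both Control ZT0 replicate 2 and Control ZT18 replicate 1.

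**Figure D1:**
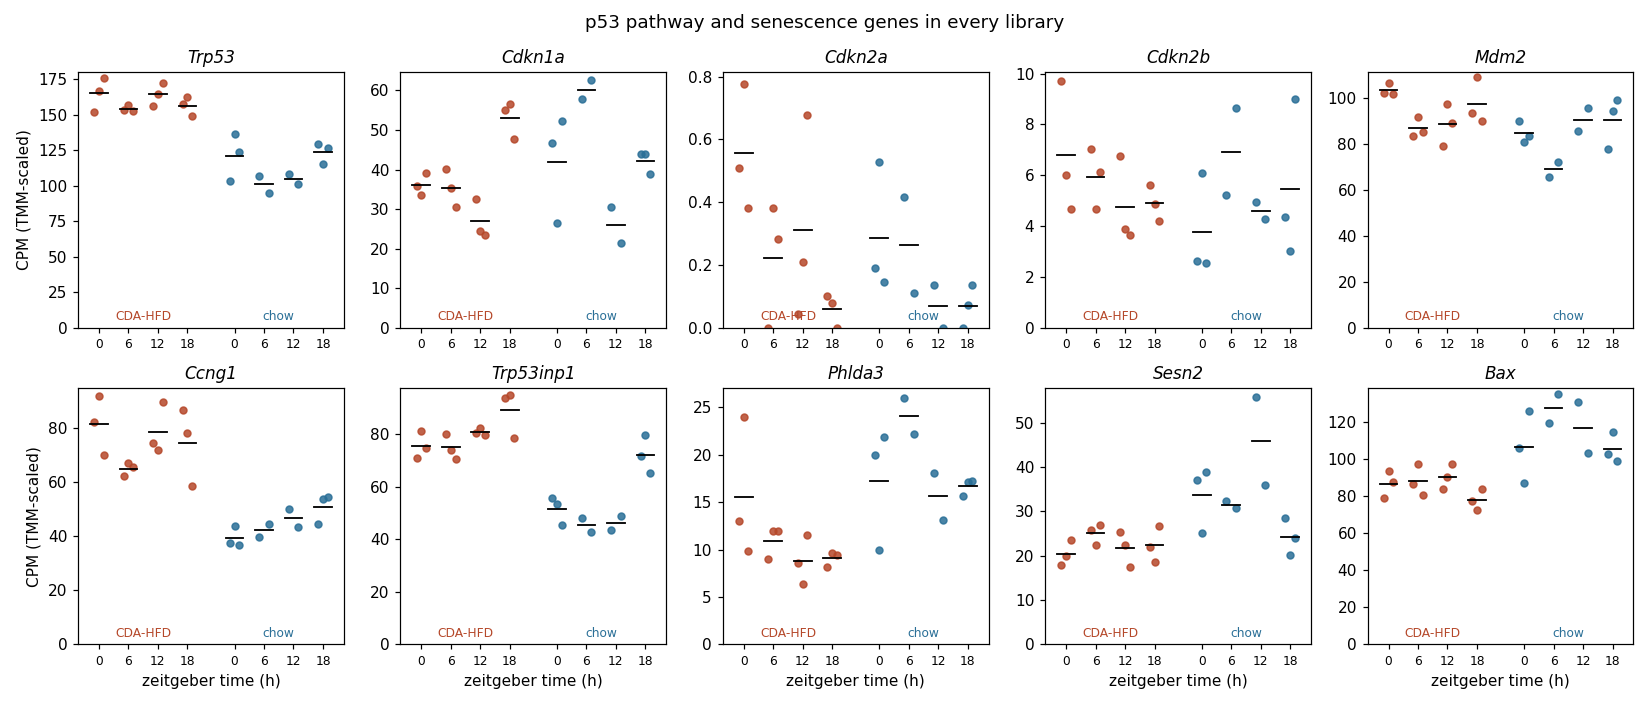
Level of each of the 10 genes in TMM-scaled CPM (vertical axes) in every library; in each panel the diet (CDA-HFD) libraries stand left of the control (chow) libraries, both by zeitgeber time in h, points are libraries and bars are group means. Every diet point lies above every control point for Trp53 and Ccng1, while Cdkn1a, Cdkn2a and Cdkn2b show mixed points.

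Trp53 itself (11:69580359-69591873, plus strand, GRCm38) ran from 148.9 through a median of 157.2 to 176.2 CPM in diet libraries, against 95.0, 112 and 136.5 CPM in control libraries. All 12 diet libraries lay above the highest control library. The means were 160.1 ± 8.57 CPM under diet (SD, n = 12) and 114.7 ± 13.8 CPM in control (SD, n = 10), a log2 change of 0.51 ± 0.055 (standard error) and a fold of 1.42, with an edgeR adjusted p of 9.277e-08. Groups that do not overlap over all libraries occurred for 17.1% of tested genes, 7.35% with diet above and 9.78% with diet below, and among the 10 genes for Trp53 and Ccng1. The share of all genes whose libraries do not overlap at a single time was not counted, here or for the genes below. The log2 change was 0.45, 0.61, 0.65 and 0.34 at ZT0, ZT6, ZT12 and ZT18, with edgeR adjusted p of 0.002039, 0.000349, 0.0001998 and 0.01558. The ZT18 call was lost without Diet ZT18 replicate 2 (adjusted p 0.05772) and without Control ZT18 replicate 2 (adjusted p 0.07163), and with no filter on low counts (0.08342). All 4 diet groups averaged above all 4 control groups, and the only break between neighbouring groups whose libraries did not overlap was the one between Diet ZT6 and Control ZT18.

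Mdm2 (10:117688875-117710758, minus strand), the ligase that marks p53 for degradation and is itself a p53 target, differed little. It ran from 79.3 through a median of 92.7 to 109.3 CPM under diet, against 65.6, 84.7 and 99.3 CPM in control, and 4 of 12 diet libraries exceeded the highest control library. The means were 94.2 ± 9.43 CPM under diet (SD, n = 12) and 84.6 ± 10.7 CPM in control (SD, n = 10), a log2 change of 0.17 ± 0.06 with an edgeR adjusted p of 0.01861. This call was lost without Control ZT6 replicate 1 (adjusted p 0.07156), without Control ZT12 replicate 1 (0.07027), with no filter on low counts (0.05712), without the ZT0 libraries (log2 change 0.12, 0.1928) and without the ZT6 libraries (0.12, 0.1856). At ZT0 the diet libraries held 102.4, 106.5 and 101.8 CPM, against 90.3, 81.0 and 83.6 CPM in control libraries, and at ZT6 they held 83.6, 91.9 and 85.1 CPM, against 65.6 and 72.4 CPM. The diet libraries were above at both times, yet the single-time tests did not pass (edgeR adjusted p 0.06106 at ZT0 and 0.05396 at ZT6). Both passed in DESeq2 (0.01016 and 0.02033) and with RLE scaling (0.02553 and 0.04325). At ZT12 and ZT18 the diet and control libraries overlapped.

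Cdkn1a (17:29090976-29100727, plus strand) encodes p21, the CDK inhibitor through which p53 halts the cell cycle, and its promoter holds one of the classical p53 binding sites. The bases before its upstream start are shown because the gene is the standard readout of p53 activity and was the only gene of the set whose libraries separated in opposite directions at different times. They span 17:29090729-29090978 on the plus strand, from RefSeq (GRCm38.p6), and the capitals mark a pair of adjacent p53 half-sites.
Cdkn1a upstream start: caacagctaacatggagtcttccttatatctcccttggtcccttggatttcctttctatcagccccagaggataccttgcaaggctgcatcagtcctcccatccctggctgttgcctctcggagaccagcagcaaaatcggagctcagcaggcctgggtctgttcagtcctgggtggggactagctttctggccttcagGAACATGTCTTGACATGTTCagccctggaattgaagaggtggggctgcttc
The site lies at bases -51 to -32 from that start and 2822 bases before the downstream annotated start. It was found by a search for adjacent p53 half-sites on both strands (purines, a core CNNG whose Ns are A or T, then pyrimidines) that allows 1 mismatch outside the cores, a setting chosen after the sequence was seen. Of 32851 promoter windows from 250 bases before to 50 after a start, 18 (0.0548%) held such a match and 3 (0.00913%) held one with no mismatch.

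Single half-sites, which 8.36% of windows hold, were found in the windows of Bax, Mdm2, Ccng1 and Trp53 as well, and Cdkn1a had a further one before its paired site. They are shown 5′ to 3′ with the core in capitals, to set them beside the paired site of Cdkn1a.
Cdkn1a, bases -51 to -32: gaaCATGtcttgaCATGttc
Cdkn1a, bases -73 to -64: ggaCTAGctt
Bax, bases -201 to -192: aggCAAGctt
Mdm2, bases -186 to -177: gaaCTTGcct
Ccng1, bases -185 to -176: gggCAAGcct
Trp53, bases -75 to -66: ggaCTTGccc
The windows of Phlda3, Cdkn2a, Cdkn2b and Sesn2 held no half-site in these letters, and 9 of the 10 genes had a window. The E-box CACGTG, the element bound by the circadian activators CLOCK and BMAL1 among other factors, was in 7.15% of windows. It occurred in the windows of Bax, at -9 to -4 and at +36 to +41, and of Trp53, at +11 to +16. A match is a description of the letters and not evidence of binding.

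Cdkn1a RNA was not called between diet and control over all times. It ran from 23.5 through a median of 35.6 to 56.6 CPM under diet, against 21.3, 43.9 and 62.6 CPM in control, and the 2 sets of libraries overlapped over nearly their whole range. The means were 37.9 ± 10.6 CPM under diet (SD, n = 12) and 42.5 ± 13.4 CPM in control (SD, n = 10), a log2 change of -0.15 ± 0.105 with an edgeR adjusted p of 0.2542. The sign of that value turned with scaling by library size alone (0.035) and without the ZT6 libraries (0.057), and the gene was called lower without Control ZT0 replicate 2 (log2 change -0.21, adjusted p 0.03744).

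The single times of Cdkn1a differed from that average. At ZT6 the diet libraries held 40.1, 35.4 and 30.6 CPM, against 57.8 and 62.6 CPM in control libraries, and every diet library was below both control libraries. At ZT18 the diet libraries held 55.1, 56.6 and 47.8 CPM, against 44.0, 43.8 and 38.9 CPM in control libraries, and every diet library was above all 3. The log2 change was -0.77 at ZT6 with an edgeR adjusted p of 0.01028, and 0.33 at ZT18, where the test did not pass (0.2257). The ZT6 call was lost without Control ZT6 replicate 2, the library with the high macrophage and monocyte sum (adjusted p 0.08184), and with scaling by library size alone (0.06011). At ZT0 the diet libraries held 35.9, 33.6 and 39.0 CPM, against 46.7, 26.5 and 52.3 CPM, and the low control value was Control ZT0 replicate 2. Without it the ZT0 log2 change was -0.45 with an edgeR adjusted p of 0.045, against -0.21 and 0.4935 with it. At ZT12 the diet libraries held 32.6, 24.6 and 23.5 CPM, against 30.6 and 21.3 CPM, and overlapped with the control libraries.

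Ccng1 (11:40748552-40755311, minus strand) encodes cyclin G1, a p53-induced protein that acts with the phosphatase PP2A on Mdm2. It ran from 58.5 through a median of 73.2 to 91.9 CPM under diet, against 36.7, 44.0 and 54.6 CPM in control, with no overlap. The means were 74.8 ± 10.98 CPM under diet (SD, n = 12) and 44.8 ± 6.21 CPM in control (SD, n = 10). The log2 change of 0.74 ± 0.078 had an edgeR adjusted p of 6.489e-08. By time it was 1.05, 0.62, 0.75 and 0.55 at ZT0, ZT6, ZT12 and ZT18, each called (edgeR adjusted p 1.006e-05, 0.006186, 0.001403 and 0.005963). The ZT6 call was lost without Control ZT6 replicate 1 (adjusted p 0.1051).

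Trp53inp1 (4:11156431-11174379, plus strand) encodes a p53-induced nuclear protein that takes part in autophagy and in cell death. It ran from 70.8 through a median of 80.0 to 95.0 CPM under diet, against 42.7, 51.1 and 79.9 CPM in control, and 7 of 12 diet libraries exceeded the highest control library. The means were 80.2 ± 7.69 CPM under diet (SD, n = 12) and 55.5 ± 12.7 CPM in control (SD, n = 10), a fold of 1.51. The log2 change of 0.6 ± 0.061 had an edgeR adjusted p of 3.975e-08. By time it was 0.55, 0.72, 0.81 and 0.30 at ZT0, ZT6, ZT12 and ZT18, with edgeR adjusted p of 0.00068, 0.0001715, 5.654e-05 and 0.04643. Diet libraries lay above all control libraries at ZT0, ZT6 and ZT12 and overlapped with them at ZT18, where the call was lost in 17 of the 22 fits that each left out 1 library, controls and diet libraries of other times included (adjusted p up to 0.1716, without Control ZT18 replicate 3), with no filter on low counts (0.2071) and when the ZT18 groups alone were fitted (0.08778).

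Sesn2 (4:132492032-132510501, minus strand) encodes sestrin 2, which restrains mTORC1 when amino acids are short and limits oxidative stress. It ran from 17.5 through a median of 22.4 to 27.0 CPM under diet, against 20.2, 31.5 and 55.9 CPM in control, and 4 of 12 diet libraries were below the lowest control library. The means were 22.4 ± 3.41 CPM under diet (SD, n = 12) and 32.9 ± 10.1 CPM in control (SD, n = 10), a fold of 0.678. The log2 change of -0.56 ± 0.109 had an edgeR adjusted p of 0.0001889. By time it was -0.72 at ZT0 (edgeR adjusted p 0.01112), -0.33 at ZT6 (0.3205), -1.07 at ZT12 (0.001019) and -0.11 at ZT18 (0.7386). The ZT0 call was lost without Diet ZT0 replicate 1 (adjusted p 0.05534) and Control ZT0 replicate 3 (0.08003), and the ZT12 call without Control ZT12 replicate 1 (log2 change -0.72, 0.0764). The ZT18 value changed sign with scaling by library size alone (0.013), without Diet ZT18 replicate 2 (0.01) and without Control ZT18 replicate 1 (0.021).

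Bax (7:45461697-45466898, minus strand) encodes the pore-forming protein that opens the outer mitochondrial membrane in apoptosis. It ran from 72.4 through a median of 85.3 to 97.6 CPM under diet, against 87.0, 110.3 and 135.1 CPM in control, and 7 of 12 diet libraries were below the lowest control library. The means were 85.9 ± 7.95 CPM under diet (SD, n = 12) and 112 ± 15.4 CPM in control (SD, n = 10), a fold of 0.754. The log2 change of -0.41 ± 0.07 had an edgeR adjusted p of 4.605e-05. By time it was -0.29 at ZT0 (edgeR adjusted p 0.1103), -0.53 at ZT6 (0.008196), -0.37 at ZT12 (0.0674) and -0.44 at ZT18 (0.01507). The lowest control library was Control ZT0 replicate 2 at 87.0 CPM, and without it the ZT0 and ZT12 tests passed too (adjusted p 0.01541 and 0.03268). The ZT6 call was lost without Control ZT6 replicate 2 (0.09974) and with scaling by library size alone (0.1188), and the ZT18 call without Diet ZT18 replicate 2 (0.06612) or Control ZT18 replicate 2 (0.06628).

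Phlda3 (1:135766119-135769136, plus strand) encodes a p53-induced protein with a pleckstrin homology domain that competes with AKT for membrane lipids. It ran from 6.41 through a median of 9.74 to 24.03 CPM under diet, against 9.96, 17.7 and 26.0 CPM in control, and 7 of 12 diet libraries were below the lowest control library. The means were 11.1 ± 4.48 CPM under diet (SD, n = 12) and 18.1 ± 4.67 CPM in control (SD, n = 10), a fold of 0.597. The log2 change of -0.745 ± 0.161 had an edgeR adjusted p of 0.0005261. The libraries overlapped at ZT0, where diet held 12.96, 24.03 and 9.80 CPM and control held 20.0, 9.96 and 21.9 CPM. The ZT0 log2 change was -0.15 (edgeR adjusted p 0.778), and its sign turned without Diet ZT0 replicate 3 (0.097) and without Control ZT0 replicate 3 (0.078). At ZT6, ZT12 and ZT18 all diet libraries lay below all control libraries, with log2 changes of -1.14, -0.82 and -0.88 and edgeR adjusted p of 0.0128, 0.07735 and 0.03453. The ZT6 call was lost without Diet ZT6 replicate 1 (0.05474) or Control ZT6 replicate 1 (0.1042), and the ZT18 call without any single library of either ZT18 group (0.0524 to 0.1049). The ZT12 test passed without Control ZT0 replicate 2 (0.04222).

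The INK4 genes of the set, Cdkn2a and Cdkn2b, encode inhibitors of CDK4 and CDK6 and are widely used as marks of senescence. These 2 genes were the rarest of the 10. Cdkn2a (4:89274471-89294653, minus strand), which encodes p16INK4a and, from another reading frame, the Mdm2 inhibitor ARF, had 0 to 18 counts in a diet library and 0 to 11 in a control library. It ran from 0 through a median of 0.246 to 0.776 CPM under diet, against 0, 0.137 and 0.527 CPM in control. It was at 0 in Diet ZT6 replicate 1, Diet ZT18 replicate 3, Control ZT12 replicate 2 and Control ZT18 replicate 1, where a count of 0 allows up to 0.125, 0.104, 0.0763 and 0.125 CPM (3 counts in that library, counting error only). The log2 change of 0.68 ± 0.778 was smaller than its standard error (edgeR adjusted p 0.5), so that no difference was detectable at this depth. Counts per gene do not tell p16INK4a from ARF.

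Cdkn2b (4:89306299-89311039, minus strand), the neighbour that encodes p15INK4b, ran from 3.65 through a median of 5.24 to 9.71 CPM under diet, against 2.56, 4.66 and 8.995 CPM in control. The means were 5.6 ± 1.69 CPM under diet (SD, n = 12) and 5.08 ± 2.28 CPM in control (SD, n = 10), and the libraries overlapped throughout. The log2 change was 0.13 ± 0.225 with an edgeR adjusted p of 0.6654, and it was -0.13 without the ZT0 libraries. At ZT0 the diet libraries held 9.71, 6.00 and 4.69 CPM, against 2.64, 6.08 and 2.56 CPM in control libraries. The ZT0 test did not pass (log2 change 0.86, edgeR adjusted p 0.148), and without Control ZT0 replicate 2, the library with 6.08 CPM, it did (1.39, 0.02493).

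Per kb of merged exon, the scale on which different genes can be set side by side, Bax stood highest at 54.5 CPM per kb under diet and 71.4 in control, followed by Trp53 at 39.6 under diet and 28.4 in control. Ccng1 averaged 21.3 CPM per kb under diet and 12.8 in control, Mdm2 18.5 under diet and 16.6 in control, and Trp53inp1 12.4 under diet and 8.57 in control. Phlda3 averaged 7.13 under diet and 11.6 in control, and Sesn2 6.45 under diet and 9.46 in control. Cdkn1a averaged 10.7 CPM per kb under diet and 11.9 in control. Cdkn2b, at 4.03 under diet and 3.65 in control, and Cdkn2a, at 0.245 under diet and 0.148 in control, stood lowest. The span of an annotated gene overlaps that of Cdkn1a on the opposite strand. The strand setting of the counting is not given in the sources used here, so reads in any shared exons cannot be told apart. The spans of Sesn2 and Bax each overlap an annotated gene on their own strand. There, reads in any shared exons are uncertain under any strand setting. Spans and not exons were compared, in GENCODE M21, and the annotation behind the counts is not given.

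**Figure D2:**
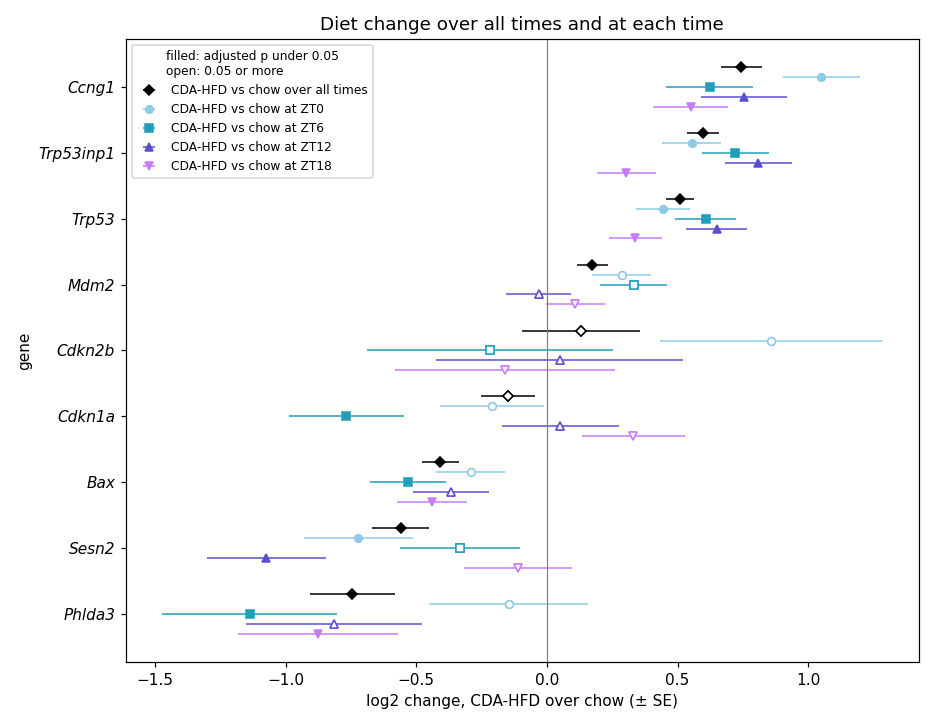
Log2 change of diet over control (horizontal axis) with its standard error over all times and at each zeitgeber time, for every gene of the set but Cdkn2a; filled points have an edgeR adjusted p under 0.05 and open points do not. Trp53, Ccng1 and Trp53inp1 sit above 0 at all 4 times, Bax, Phlda3 and Sesn2 sit below 0 at all 4, and Cdkn1a lies at -0.77 at ZT6 and 0.33 at ZT18.

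At single times, 4 of the 10 genes were called at ZT0 and at ZT12, 6 at ZT6 and 5 at ZT18; in the order of the times, 30.0%, 30.1%, 29.6% and 30.9% of all tested genes were called. Trp53, Ccng1 and Trp53inp1 were the 3 called higher at each of the 4 times, where 13.5%, 14.8%, 14.3% and 15.3% of all genes were called higher in the order of the times. Sesn2 was called lower at ZT0 and ZT12, Bax and Phlda3 at ZT6 and ZT18, and Cdkn1a at ZT6, which makes 1, 3, 1 and 2 genes lower in the order of the times, where 16.5%, 15.3%, 15.3% and 15.5% of all genes were called lower. Mdm2, Cdkn2a and Cdkn2b were called at no single time. How many of all tested genes have diet and control libraries that do not overlap at a single time was not counted. Without Control ZT6 replicate 2, 4 genes were called at ZT6, as Cdkn1a and Bax lost their calls. Without Control ZT6 replicate 1, Ccng1 and Phlda3 lost theirs (edgeR adjusted p 0.1051 and 0.1042). Over all fits that each left out 1 library, 4 to 7 genes were called at ZT6.

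The second question of the design was whether these genes varied over the day and whether diet changed that. In control libraries, the F test over the 4 times called Trp53inp1 (edgeR adjusted p 0.004017) and Cdkn1a (0.02689), 2 of the 10 genes, where 5.74% of all tested genes were called. Trp53inp1 in control averaged 51.6 ± 5.34 (n = 3), 45.5 ± 3.85 (n = 2), 46.2 ± 3.84 (n = 2) and 72.3 ± 7.3 CPM (n = 3) at ZT0, ZT6, ZT12 and ZT18 (SD), and all 3 ZT18 libraries lay above every other control library. The call was lost when control libraries alone were fitted (0.08029). Under diet it averaged 75.8 ± 5.23, 75.0 ± 4.72, 80.9 ± 1.34 and 89.2 ± 9.03 CPM at the same times (SD, n = 3 each), and its F test did not pass (0.6048). The gap between diet and control was smallest at ZT18, the time at which the control libraries were highest.

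Cdkn1a had its highest mean at ZT18 under diet and at ZT6 in control. Under diet it averaged 36.2 ± 2.7, 35.3 ± 4.75, 26.9 ± 5.01 and 53.1 ± 4.71 CPM at ZT0, ZT6, ZT12 and ZT18 (SD, n = 3 each), and in control 41.8 ± 13.6 (n = 3), 60.2 ± 3.42 (n = 2), 26.0 ± 6.56 (n = 2) and 42.3 ± 2.89 (n = 3). ZT12, the start of the dark phase, was the low point in both diet and control. Ordered by mean, Control ZT6 came first and Diet ZT18 second, each above the next group with no overlap of libraries, and the other 6 groups overlapped with their neighbours. A 24 h cosine fitted to log2 CPM put the peak at ZT 20.4 h with an amplitude of 0.37 under diet and at ZT 2.42 h with an amplitude of 0.32 in control, as a description of 4 time points. The time test in control was lost without Control ZT6 replicate 1 (adjusted p 0.09), Control ZT6 replicate 2 (0.1337) or Control ZT12 replicate 2 (0.1927), with cosine terms (0.4638) and when control libraries alone were fitted (0.1556).

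Under diet, the F test over times called none of the 10 genes in edgeR and 1.08% of all tested genes, with Cdkn1a nearest to the threshold (adjusted p 0.05765). Cdkn1a and Phlda3 had an unadjusted p under 0.05, and DESeq2 called 1 gene, Cdkn1a (adjusted p 0.002915). In edgeR, Cdkn1a was called without Diet ZT12 replicate 1 (0.03958) and without Control ZT0 replicate 2 (0.005493), and its adjusted p ranged up to 0.2092 over the fits that left out 1 library each. The F test of whether the diet difference varied with time also called none of the 10 genes, and 0.959% of all tested genes. There Cdkn1a, Sesn2 and Trp53inp1 had an unadjusted p under 0.05 and adjusted p of 0.1872, 0.2742 and 0.3. DESeq2 called Cdkn1a (0.04906), and so did edgeR without Control ZT0 replicate 2 (0.01901) or with no filter on low counts (0.02462). The opposite separation of Cdkn1a libraries at ZT6 and ZT18 is therefore a difference whose test depends on 1 library, on the filter and on the tool.

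**Figure D3:**
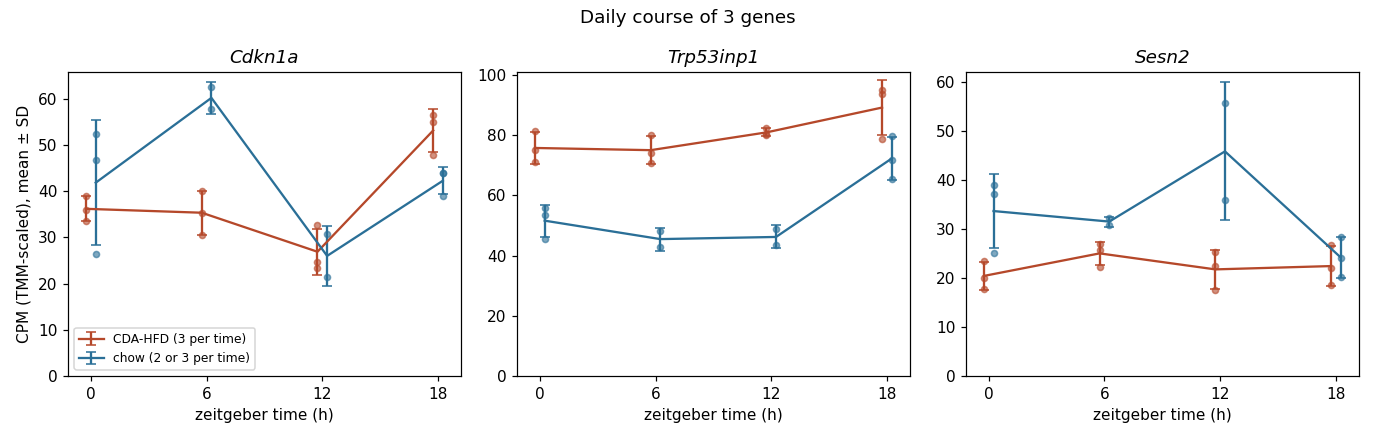
Level of Cdkn1a, Trp53inp1 and Sesn2 in CPM (vertical axes) by zeitgeber time in h, with diet drawn slightly left of control; points are libraries, lines join group means and bars are SD. Cdkn1a averages 35.3 CPM under diet and 60.2 CPM in control at ZT6, and 53.1 CPM under diet and 42.3 CPM in control at ZT18.

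Sesn2 was nearly level over the day under diet, with means of 20.4 ± 2.92, 25.04 ± 2.42, 21.8 ± 3.97 and 22.4 ± 4.11 CPM at ZT0, ZT6, ZT12 and ZT18 (SD, n = 3 each) and an F test that did not pass (edgeR adjusted p 0.9304). In control it averaged 33.7 ± 7.55 (n = 3), 31.5 ± 1.04 (n = 2), 45.9 ± 14.1 (n = 2) and 24.2 ± 4.16 CPM (n = 3). At ZT12 the control libraries held 55.9 and 35.9 CPM, so that the control peak leans on Control ZT12 replicate 1. The F test over times in control missed the threshold (edgeR adjusted p 0.0801), passed without Control ZT0 replicate 2 (0.03179) or Control ZT12 replicate 2 (0.04366), and passed in DESeq2 (0.01834). Trp53 had a cosine amplitude of 0.01 under diet and 0.18 in control on the log2 scale, with an F test over times in control that did not pass (0.2289).

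The genes whose library-to-library pattern was most like each of these were found by Pearson's r of log2 CPM across the 22 libraries after each group's mean was subtracted, among 10521 genes. The 22 points share depth and cell makeup, so r is a description, and it was not recomputed without Control ZT0 replicate 2. Cdkn1a was most like Pvr (r = 0.892), Tcirg1 (0.877) and Camk1 (0.867), and Trp53 was most like Ciart (0.843), Csk (0.814) and Prkcz (0.808). Ccng1 was most like Crcp (0.904), Foxn3 (0.804) and Bmp4 (0.787), and Trp53inp1 was most like Tmem94 (0.822), Dffb (0.8) and Ctdspl2 (0.797). None of the genes named here as closest to one of the 10 was itself another of the 10. Each r was picked as 1 of the 3 highest of 10521, so that outcome does not show whether the 10 varied together. Among the genes that fell, Phlda3 was most like Rilpl1 (0.869), Dysf (0.868) and Agpat4 (0.866), Sesn2 was most like Tagln2 (0.866), Cdk4 (0.86) and Naa80 (0.837), and Bax was most like Rabac1 (0.897), Ino80c (0.86) and Cnpy3 (0.848).

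The other genes of the pathway were counted in 5 lists. Of 28 other p53 targets, 13 were called higher and 9 lower under diet over all times (78.6% of the list, beside 52.4% of all tested genes), with a median log2 change of 0.13. The 4 with the smallest p had log2 changes beyond that of any of the 10 genes. Pmaip1, which encodes the BH3-only death protein NOXA, averaged 197.5 ± 83.1 CPM under diet and 18.4 ± 7.03 CPM in control, a log2 change of 3.41 ± 0.137. Plk2, a polo-like kinase, averaged 85.7 ± 25.9 CPM under diet and 365.7 ± 75.1 CPM in control (-2.15 ± 0.086). Fas, the death receptor, averaged 17.2 ± 4.63 CPM under diet and 92.2 ± 18.8 CPM in control (-2.46 ± 0.116). Xpc, a sensor of DNA lesions in nucleotide excision repair, averaged 41.7 ± 8.36 CPM under diet and 139.1 ± 30.9 CPM in control (-1.73 ± 0.091). The p53 targets therefore moved in both directions, as the 10 genes did, beside an endothelial marker sum that fell to a median of 1527 CPM under diet, against 26490 CPM in control.

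**Figure D4:**
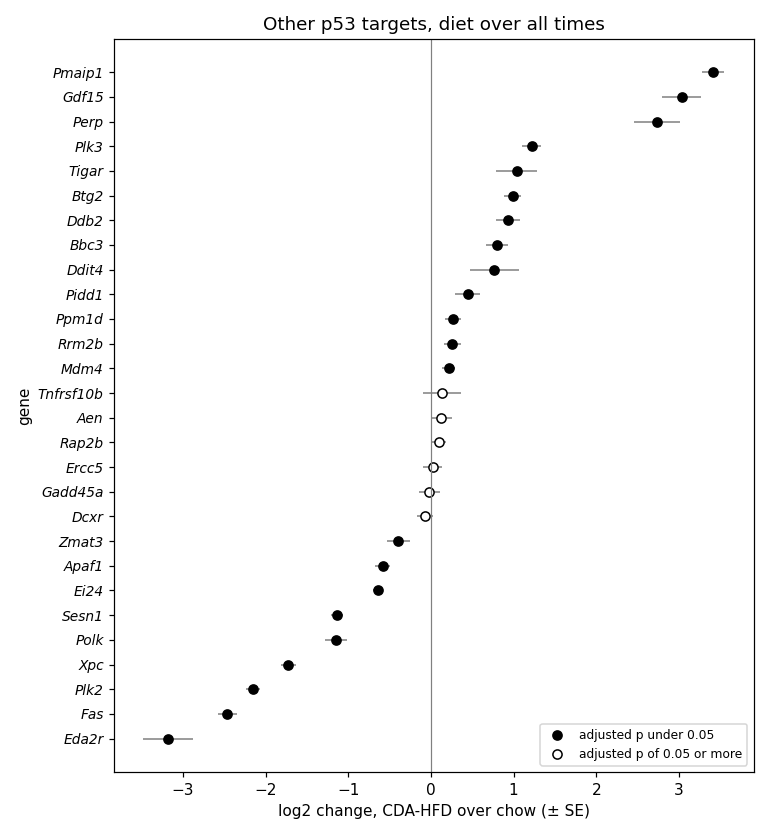
Log2 change of diet over control over all times (horizontal axis), with its standard error, for the 28 other p53 targets; filled points have an edgeR adjusted p under 0.05, and points right of 0 are higher under diet. Of the filled points, 13 lie right of 0, Pmaip1 at 3.41 among them, and 9 lie left of it, with Fas at -2.46 and Plk2 at -2.15.

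Over the day, 4 of the 28 other targets were called in control, where 5.74% of all tested genes were, with Btg2 (edgeR adjusted p 0.0001018) and Rap2b (0.00339) at the smallest p. Btg2, an antiproliferative gene, averaged 680.7 ± 88.7, 965 ± 83, 720.8 ± 65.1 and 1199 ± 40.2 CPM at ZT0, ZT6, ZT12 and ZT18 under diet, and 303.8 ± 124, 376 ± 34.5, 369.2 ± 11.3 and 873.9 ± 63.8 CPM in control. Its highest mean was at ZT18 under diet and in control, the time at which Trp53inp1 was highest too. Under diet 2 of the 28 were called, beside 1.08% of all tested genes, namely Pmaip1 (0.009638) and Plk2 (0.01081), and both had their highest diet mean at ZT18, as Cdkn1a did, at 323.2 ± 53.3 CPM for Pmaip1 and 122.3 ± 7.71 CPM for Plk2. None of the 28 was called for a diet difference that varied with time in edgeR, where 0.959% of all tested genes were.

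Of 18 regulators and relatives of p53, 7 were called higher and 3 lower (median log2 change 0.05). These are 55.6% of the list, near the 52.4% of all tested genes. Npm1, the nucleolar protein that binds ARF, averaged 92.1 ± 6.09 CPM under diet and 47.6 ± 6.17 CPM in control (0.96 ± 0.063). The 3 lower genes were Hipk2, a kinase that phosphorylates p53, at 33.9 ± 6.76 CPM under diet and 96.8 ± 24.4 CPM in control (-1.52 ± 0.102), the checkpoint kinase gene Chek2 (-1.14 ± 0.132) and Ppp1r13b, which encodes the p53-binding protein ASPP1 (-0.42 ± 0.078). None of the 18 was called over times in control, over times under diet or for the interaction in edgeR. Of all tested genes, 5.74%, 1.08% and 0.959% were called in these tests.

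Of 23 other CDK inhibitors and RB pathway genes, 11 were called higher and 8 lower (82.6%, beside 52.4% of all tested genes), with a median log2 change of 0.35. Cdkn1c, which encodes the CDK inhibitor p57, averaged 7.32 ± 1.92 CPM under diet and 60.5 ± 8.26 CPM in control (-3.06 ± 0.131). The kinases that p16INK4a and p15INK4b inhibit moved apart: Cdk6 averaged 119.8 ± 27.4 CPM under diet and 23.2 ± 9.18 CPM in control (2.50 ± 0.11), while Cdk4 averaged 140.6 ± 15.04 CPM under diet and 260.9 ± 37.0 CPM in control (-0.92 ± 0.058). Lmnb1, a nuclear lamin whose loss is a mark of senescence, averaged 34.5 ± 4.51 CPM under diet and 8.59 ± 3.19 CPM in control (2.11 ± 0.143), beside proliferation markers that were higher under diet. Glb1, the gene of the lysosomal enzyme behind senescence-associated beta-galactosidase staining, averaged 50.8 ± 6.84 CPM under diet and 75.1 ± 17.4 CPM in control (-0.59 ± 0.08). Glb1 and Cdk6 were the 2 genes of this list called over times in control, where 5.74% of all tested genes were (edgeR adjusted p 0.02971 and 0.004012).

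Of 25 genes that senescent cells are known to secrete or shed, 11 were called higher and 8 lower (76%, beside 52.4% of all tested genes), with a median log2 change of 0.86. Igfbp7 averaged 531.2 ± 143.4 CPM under diet and 6221 ± 1248 CPM in control (-3.61 ± 0.099), and Igfbp4 averaged 138.9 ± 36.7 CPM under diet and 1767 ± 300.9 CPM in control (-3.70 ± 0.119). The cytokine gene Il1a averaged 32.0 ± 12.3 CPM under diet and 194.3 ± 36.3 CPM in control (-2.70 ± 0.115), and Csf1 averaged 20.3 ± 5.88 CPM under diet and 93.4 ± 28.8 CPM in control (-2.23 ± 0.121). These 4 genes, named for their small p, were all lower under diet, although more genes of the list were called higher than lower. Over times in control, 7 of the 25 were called, where 5.74% of all tested genes were, with Cxcl10 (0.005558) and Cxcl1 (0.01155) at the smallest edgeR adjusted p. Under diet 1 was called, Il1a (0.01042), where 1.08% of all tested genes were.

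Of 13 BCL2 family genes, the relatives of Bax, 5 were called higher and 5 lower (76.9%, beside 52.4% of all tested genes), with a median log2 change of 0.15. The pro-apoptotic members moved in both directions: Bid rose (1.16 ± 0.114), while Bok (-2.13 ± 0.102) and Bik (-2.31 ± 0.132) fell. The survival gene Mcl1 averaged 101 ± 14.8 CPM under diet and 56.8 ± 8.67 CPM in control (0.85 ± 0.073). Bcl2 was the 1 gene of the family called over times in control, beside 5.74% of all tested genes (edgeR adjusted p 0.01004). None was called over times under diet or for the interaction in edgeR, where 1.08% and 0.959% of all tested genes were. Each log2 change named in these lists passed the edgeR test over all times, and each ± beside a CPM value is an SD over 12 diet or 10 control libraries, or over the 2 or 3 libraries of a single time.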

How the data were processed

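The authors deposited a table of read counts per gene symbol for 22 libraries and the same counts divided by 1 factor per library, which was not used here. The submitters' processing notes name STAR 2.7.9a, HTSeq, DESeq2 and the build GRCm38 (mm10). Not given in the sources used here are the annotation, the strand setting, the cell isolation and any batches. Groups were taken from the sample labels.

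Counts were tested with edgeR 4.0.16 (limma 3.58.1, R 4.3.3): filterByExpr with the 8 groups, TMM scaling, glmQLFit and glmQLFTest on 1 model with a mean per group, so that all 22 libraries share 1 estimate of spread, and Benjamini-Hochberg adjustment over 22409 genes. CPM values are TMM-scaled, log2 CPM used a prior count of 2, and a standard error is the log2 change over the root of F. The members and lists were chosen with earlier results of these data known. From each list the text names up to 4 called genes with the smallest p for diet over all times and up to 2 for each F test. Coordinates are 1-based, from GENCODE M21.

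Tested on simulated data with 200 changed genes, the fit recovered 93% of 2-fold changes over all times among 21077 genes and 78.5% of 4-fold changes in the interaction among 21021 genes, with 6.06% and 1.88% of calls false. The 200 genes were drawn from those with a mean CPM over 4 and moved in either direction. In the data 52.4% of tested genes were called over all times, and the called members changed by less than 2-fold. These rates therefore need not hold for the data. No library repeated another of its group: the lowest chi-square per degree of freedom between replicates was 17.5. Libraries of different groups were not compared in this way. The alternatives tried were DESeq2 1.42.0, a replicate block, scaling by RLE or by library size alone, another filter (none, or mean CPM from 5 upwards), cosine terms of 24 h, fits of the compared groups alone, 0.5 as the prior count, and fits without each library, each time or both Control ZT0 replicate 2 and Control ZT18 replicate 1.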

Additional observations from a re-analysis of the deposited data

Results flagged for a closer look

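The diet difference of 3 secreted or shed factors was called as varying with time in edgeR's test of the interaction, with 0.959% of all tested genes called. Spp1 and Mmp12 lay just under the threshold of 0.05. These 3 genes were not followed through the alternative fits, in which interaction calls ranged from 40 to 2085 genes. Plaur, the urokinase receptor (adjusted p 0.02355), averaged 27.1, 33.0, 34.1 and 51.4 CPM at ZT0, ZT6, ZT12 and ZT18 under diet and 16.1, 7.23, 13.2 and 7.73 CPM in control. Spp1, osteopontin (0.04956), averaged 1116, 2967, 2564 and 2524 CPM under diet and 627.4, 406.8, 358.1 and 480.3 CPM in control. Its SD under diet was 1160 CPM at ZT6 and 1350 CPM at ZT12. Mmp12, macrophage elastase (0.04999), was named because it is the last of only 3 such genes. It averaged 58.8, 117.7, 74.5 and 141.6 CPM under diet and 3.01, 2.87, 1.09 and 0.351 CPM in control. Its SD in control was 1.41 CPM at ZT12 (n = 2) and 0.25 CPM at ZT18 (n = 3), so its course in control is uncertain. Spp1 is also 1 of the 8 cholangiocyte markers, and the others were higher under diet too, such as Epcam at 67.0 CPM under diet and 14.1 CPM in control and Krt19 at 21.2 CPM under diet and 11.2 CPM in control; the part of that cell type in the Spp1 values was not tested.

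Cdkn1a drew attention because its diet libraries were all below the control libraries at ZT6 (log2 change -0.768) and all above them at ZT18 (0.331). The interaction test did not call it in edgeR (adjusted p 0.1872). The share of all tested genes whose libraries separate in this way was not counted.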

How the results depend on the processing

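Apart from fits that left out 1 library, 620 values kept their direction and call, 32 newly passed, 12 no longer passed and 10 changed sign; over the fits that left out 1 library these were 1683, 20, 40 and 17. The sign changed with library size only for Cdkn1a over all times (0.035), Cdkn2a (0.016) and Cdkn2b (0.044) at ZT6, Mdm2 at ZT12 (0.181) and Sesn2 at ZT18 (0.013), for Mdm2 at ZT12 with a mean CPM of at least 5 (0.051), for Cdkn2a at ZT18 with a replicate block (0.035), for Sesn2 at ZT18 without both Control ZT0 replicate 2 and Control ZT18 replicate 1, called both libraries from here on (0.021), and over all times for Cdkn2b without ZT0 (-0.128) and Cdkn1a without ZT6 (0.057). Genes called over times in control (1287) became 2866 with no filter, 709 with cosine terms, 241 with only the groups compared and 3103 in DESeq2; members called (2) became 4 with library size only, 1 with cosine terms and 0 with only the groups compared. Genes called over times under diet (241) became 561 with library size only, 1500 with no filter, 425 at a mean CPM of at least 5, 24 with cosine terms, 418 with only the groups compared, 632 without both libraries and 1128 in DESeq2, and members called (0) became 1 in each of these but the cosine fit. Interaction calls (215) became 2085 with no filter, 388 at a mean CPM of at least 5, 123 with a replicate block, 40 with cosine terms, 1004 without both libraries and 1464 in DESeq2, with 1 member called under no filter, without both libraries and in DESeq2. Members called at ZT18 (5) became 3 with no filter and at ZT0 (4) became 7 without both libraries. Leaving out each library gave 3 to 7 members at ZT0, 1 to 5 at ZT18, 2114 to 3384 genes higher at ZT12, 790 to 1957 genes and 1 to 3 members over times in control, 96 to 663 genes and 0 to 1 members under diet, and 76 to 1086 genes and 0 to 1 members in the interaction. It turned signs at ZT0 for Cdkn1a (-0.453 to 0.007) and Phlda3 (-0.6 to 0.097), at ZT6 for Cdkn2a (-0.92 to 0.942) and Cdkn2b (-0.552 to 0.173), at ZT12 for Cdkn1a (-0.201 to 0.337), Cdkn2b (-0.288 to 0.209) and Mdm2 (-0.105 to 0.042), and at ZT18 for Cdkn2a (-0.746 to 0.631), Cdkn2b (-0.452 to 0.405) and Sesn2 (-0.256 to 0.021). Where fewer libraries or genes were fitted, that is the construction of the alternative; other causes were not tested. Diet and control libraries of 1 time showed no pairing by replicate number (0 of 10 same-numbered pairs correlated above 0.1). That check is weak where a group holds 2 libraries, whose deviations mirror each other, and it did not cover links between times. The replicate block newly called Sesn2 over times in control (0.04355) and Mdm2 at ZT6 (0.04369). A prior count of 0.5 moved the cosine amplitude of Cdkn2a, to 0.875 under diet and 1.464 in control. Depth limits Cdkn2a, at 18 counts or fewer in any library.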

Other observations

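Within groups, some of the 10 genes varied together from library to library. After each group's mean was subtracted, log2 CPM over the 22 libraries gave Pearson's r of 0.604 for Cdkn1a with Sesn2, 0.573 for Phlda3 with Bax and 0.531 for Cdkn1a with Bax. Cdkn2b and Bax (-0.575) and Ccng1 and Sesn2 (-0.554) varied oppositely. The libraries share depth and cell makeup, so these are descriptions. Cdkn2a had r of 0.646 with Ccng1, but its counts were 18 or fewer in every library.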
